A study of Mus musculus with 6 samples.

Results

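The genes described here are the nuclear-encoded oxidative phosphorylation genes of the mouse oocyte, read in polysome-profiled RNA of aged females. They were chosen by symbol (*Nduf* followed by a, b, c, s or v and a digit, *Sdha* to *Sdhd*, and symbols starting *Uqcr*, *Cox4* to *Cox8* or *Atp5*), which gave 86 of the 25899 genes of the deposited table. Of these, 37 belong to complex I by their symbol, 4 to complex II, 8 to complex III, 19 to complex IV and 18 to complex V. A few symbols meet the rule without naming a subunit. *Cox4nb* is a former name of *Emc8*, *Atp5s* and *Atp5sl* are former names of *Dmac2l* and *Dmac2*, *Atp5l-ps1* is a pseudogene, and *Cox7a2l* codes for a factor that joins complexes III and IV.

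Oxidative phosphorylation takes place at the inner mitochondrial membrane. Complexes I and II pass electrons to ubiquinone, complex III passes them to cytochrome c and complex IV to oxygen, and complex V makes ATP from the proton gradient that complexes I, III and IV build. Most subunits are translated on cytosolic ribosomes and imported, while a small core of complexes I, III, IV and V is encoded by mitochondrial DNA. Oocytes rely on mitochondrial ATP, and because fully grown oocytes hardly transcribe, which stored mRNAs sit on polysomes bears on which proteins are made.

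All 6 libraries were made from oocytes of aged females (AF; labelled CD1 and 58 weeks old, whereas the paper calls the strain ICR and gives another age). Females were primed with PMSG, oocytes were released from an IBMX block, cultured for 180 min until nuclear envelope breakdown and treated with cycloheximide (0.1 mg/ml, 10 min), which holds ribosomes on mRNA. Lysates of 200 oocytes were separated on sucrose gradients, and fractions were pooled into non-polysomal (NP; free RNA and RNA on monosomes) and polysomal (P) RNA, with 3 libraries of each. Values are FPKM, that is, fragments scaled to exon length and to the mapped reads of the library. Libraries of young females were not analysed here, so every comparison is P against NP within AF oocytes and none is a comparison of ages.

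The libraries differed in depth. Reads recovered from the whole-read steps of low FPKM values numbered between 1235326 and 18065335 in NP and between 163555 and 1548760 in P. For a transcript of 500 bases, 3 reads were worth 36.7 FPKM in P replicate 1, 5.27 in P replicate 2 and 3.87 in P replicate 3, against at most 4.86 in NP. The median member had 51.8 to 986 recovered reads in NP and 2.0, 7.88 and 15 in the P replicates, and in P replicate 1 34 of the 86 members were listed at 0. All 10 oocyte markers looked for were present. Of 10 granulosa cell markers, 6 were at 0 in every NP library and 7 in every P library, with summed levels of 11.2 to 131 FPKM in NP and 1.18 to 16.5 in P. *Foxl2*, *Amh* and *Fshr* were at 0 throughout and *Cyp19a1* was the highest. All 6 blood cell markers found in the table were at 0. NP replicate 1 was about as deep as P replicates 2 and 3. The part of depth or of granulosa cell RNA in the results below was not tested.

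The members are often described as sharing promoter motifs, so a few promoters are shown first. In RefSeq (GRCm38.p6), 69 members had 75 promoters of 250 bases before to 50 after the start. Searched on both strands, the ETS motif CCGGAAG, the core bound by GABPA (also called NRF2), was in 21.3% of them and in 8.86% of all 32851 promoters. The motif GCATGCGC of NRF1, a regulator of respiratory chain genes, was in 13.3% and in 2.71%, and AAGATGGC, bound by YY1, in 16.0% and in 2.75%. A match describes letters, not binding. The 120 bases before the start are printed for *Sdhb* (chr4:140961151-140961270, plus strand), *Sdhd* (chr9:50603850-50603969, minus strand) and *Cox6b1* (chr7:30626115-30626234, minus strand), which are described below and carry such a match close to the start. Capitals mark the NRF1 match in *Sdhb*, 54 bases before the start, and the ETS match on the opposite strand in *Sdhd* and *Cox6b1*, 46 and 28 bases before it.
Sdhb: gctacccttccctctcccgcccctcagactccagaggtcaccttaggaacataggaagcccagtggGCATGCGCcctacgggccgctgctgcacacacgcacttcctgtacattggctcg
Sdhd: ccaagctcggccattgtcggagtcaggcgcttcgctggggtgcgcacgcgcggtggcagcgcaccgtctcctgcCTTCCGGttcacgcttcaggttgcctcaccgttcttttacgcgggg
Cox6b1: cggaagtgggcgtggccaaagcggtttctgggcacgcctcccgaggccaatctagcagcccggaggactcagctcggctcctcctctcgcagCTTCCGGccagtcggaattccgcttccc

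In AF oocytes 12 of the 76 oxidative phosphorylation mRNAs with a mean above 1 FPKM in either fraction were lower in P than in NP (limma, adjusted p under 0.1) and 0 were higher, where 1.80% of the 10578 genes tested were called lower and 0.0189% higher. *Cox4i1*, *Cox5b*, *Ndufb11*, *Atp5g2*, *Uqcrq*, *Atp5o*, *Atp5j2*, *Ndufb10*, *Ndufs8*, *Ndufa9* and *Ndufa2* were among the calls, which came from complexes I, III, IV and V. The 10 members not tested were *Cox7a1*, *Cox7b2*, *Cox8b* and *Atp5l-ps1*, which were at 0 in every library, and *Ndufa5*, *Ndufb2*, *Uqcrb*, *Cox8c*, *Atp5j* and *Atp5s*, whose mean was too low in both fractions. The 76 members had a median log2 ratio (P over NP) of -1.89, against a median of -1.03 for all genes tested, with 54 members (71.1%) below the median of all genes. A ratio below 0 was found for 70 of the 76 members and for 8478 of the 10578 genes, and after median-of-ratios rescaling and quantile normalization for 55 of 74 and 53 of 76 members. Within replicate numbers the members' median was -1.86, -1.99 and -1.70. With members at 0 in every P library set to 3 reads over the pooled P libraries, at most their NP mean, it was -1.83. Members at 0 in only some P libraries were left at 0, so this limit covers depth only in part. At 15.8% called, the members lay above the background of 1.80%, but highly expressed genes were called more often in general: of genes with a mean above 100 FPKM, 12.0% were called lower, and of the members above that level 10 of 21. All 3 P libraries lay below all 3 NP libraries for 37 of the 76 members, against a background of 23.2%, and above them for 1 member against 0.633%. *Ndufa1*, *Ndufa4l2*, *Ndufa13*, *Ndufb7*, *Ndufs4* to *Ndufs7*, *Cox6b2*, *Cox8a*, *Atp5d* and *Atp5k* had a P mean under 1 FPKM and were tested through NP alone. The filter thus fixed their lower P mean, and they count among the 70 and partly among the 37. The same filter applied to all genes tested.

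These calls depended on the libraries and on the scaling. With the replicate number as a block, 19 members were lower in P against a background of 6.27%, adding *Atp5e*, *Cox4nb*, *Cox5a*, *Ndufa8*, *Ndufb4*, *Uqcr11* and *Uqcrc1*. Without NP replicate 1 or NP replicate 3 there were 0 calls among members by limma, with 26 and 30 at an unadjusted p under 0.05, and without NP replicate 2 there were 2. Over all genes those fits called 4 of 10262, 1 of 10683 and 12 of 10174, and the first and second had 1088 and 2383 genes at an unadjusted p under 0.05. The summed FPKM was between 597261 and 633110 in NP and between 246182 and 393876 in P. After rescaling by the median of ratios the median of all genes moved to -0.37 and that of the members to -1.21, and by quantile normalization to 0.0027 and -0.80. The members then lay 0.85 and 0.81 below all genes, close to the 0.86 of the deposited scale, but 0 of them passed the threshold in limma, with 19 and 15 at an unadjusted p under 0.05. Over all genes 3 of 10145 and 4 of 10578 passed, with 777 and 762 at an unadjusted p under 0.05.

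**Figure D1:**
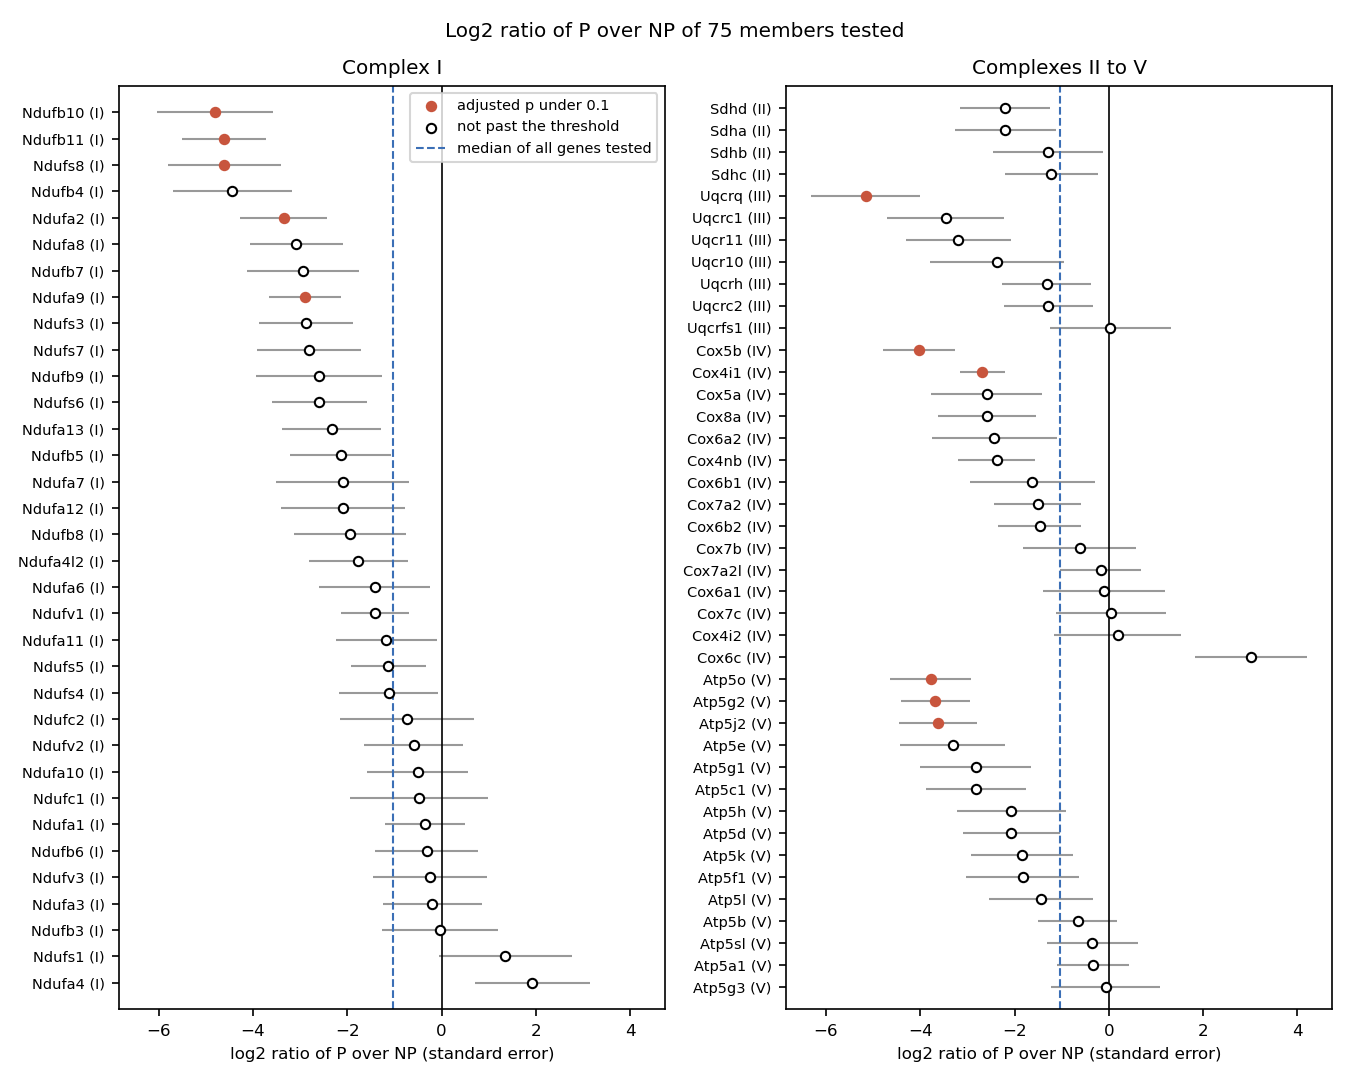
Log2 ratio of P over NP (horizontal axis, log2(FPKM + 1) scale, 3 libraries against 3) of 75 of the members tested, with bars for the standard error. Filled points are 11 members past the threshold, all left of the dashed line at the median of all genes tested (-1.03), and *Cox6c* lies farthest to the right at 3.02.

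As a group, the members took up 2.36%, 2.10% and 4.05% of the summed FPKM in the NP replicates and 0.934%, 1.05% and 1.27% in the P replicates, and the fractions did not overlap. *Cox4i1* alone made up between 26.5% and 39.0% of the members' sum in NP. Without the 5 members of highest mean (*Cox4i1*, *Ndufb11*, *Cox5a*, *Ndufa9* and *Atp5g2*) the shares were 0.896%, 0.984% and 1.73% in NP and 0.704%, 0.536% and 0.520% in P. The shares did not overlap without the leading genes either, although the gap narrowed. Bulk RNA of pooled oocytes was measured, so fewer oocytes with a transcript on polysomes and less of it per oocyte cannot be told apart. FPKM is scaled within each library, so a ratio of P over NP is not the share of an mRNA on polysomes.

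**Figure D2:**
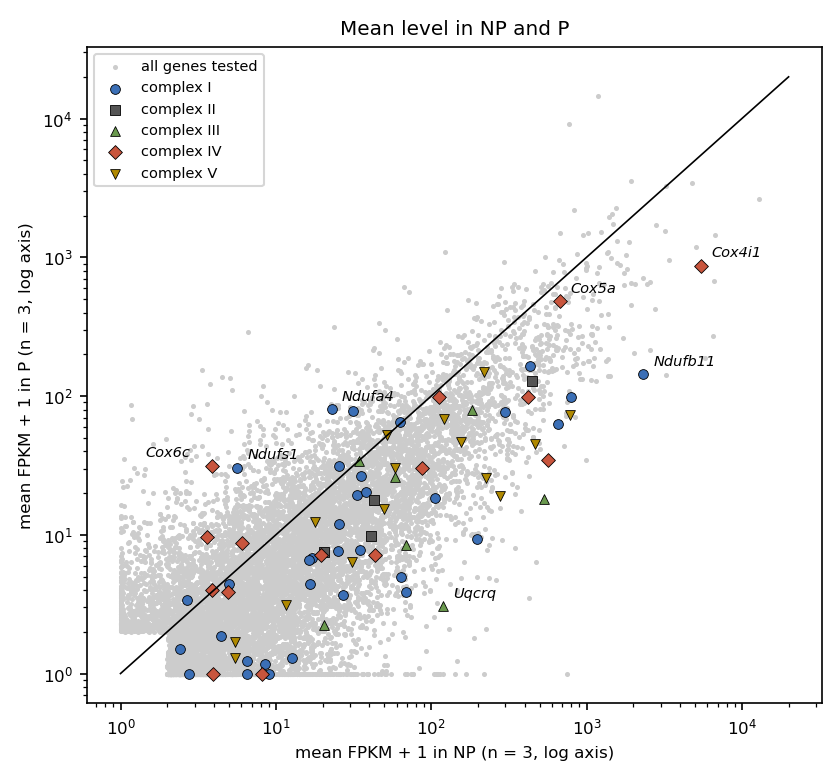
Mean FPKM + 1 in P (vertical log axis) against NP (horizontal log axis), each over 3 libraries, for all genes tested (grey) and the members by complex; the line marks equal levels. *Cox4i1* and *Ndufb11* stand at the high end below the line, and *Cox6c*, *Ndufs1* and *Ndufa4* above it.

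Complex I, the NADH dehydrogenase, had 6 calls among its 35 tested members, where 1.80% of all genes tested were called lower. Its median log2 ratio was -1.94, against -1.03 for all genes. *Ndufb11* (chromosome X, 20615326 to 20617619, GRCm38), a small accessory subunit of the membrane arm, was its most abundant mRNA, at 1126, 1378 and 4422 FPKM in NP and 175, 246 and 9.95 FPKM in P. Its fractions were well apart, with a log2 ratio of -4.61 ± 0.89 (SE, n = 3 per fraction; limma adjusted p = 0.0167), although P replicate 3 was far below the other P libraries. *Ndufb10*, another membrane arm subunit, was at 41.2, 124 and 38.7 FPKM in NP and at 8.64 FPKM in P replicate 2 only, listed at 0 in the other P libraries, where 3 reads were worth 15.1 and 1.59 FPKM. Its ratio was the lowest of the complex at a pseudocount of 1, -4.80 ± 1.23 (adjusted p = 0.065). *Ndufb11* shares up to 456 bases with the pseudogene *Gm6444* or its neighbour *Rbm10*, and what part of its reads is theirs was not tested.

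*Ndufs8*, a core subunit of the arm that carries electrons to ubiquinone, was lower in P. It was at 352, 208 and 31.9 FPKM in NP and at 0, 16.4 and 8.71 FPKM in P, and its lowest NP library was still above its highest P library, with a log2 ratio of -4.60 ± 1.19 (limma adjusted p = 0.069). *Ndufa9*, an accessory subunit near the ubiquinone site, measured 1393, 713 and 259.6 FPKM in NP, and 41.6, 159.7 and 89.3 FPKM in P, a ratio of -2.90 ± 0.77 (adjusted p = 0.0736). *Ndufa2*, a small accessory subunit, had 206, 309 and 1460.3 FPKM in NP against 10.7, 68.9 and 107 FPKM in P, with a ratio of -3.35 ± 0.92 (adjusted p = 0.0853). Its value in P replicate 1 was 1 recovered read. *Ndufa2* passed under only 2 of 13 alternatives.

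The other complex I members did not pass, and their ratios ran from -4.44 to 1.92. *Ndufv1*, which codes for the NADH-binding subunit, was high in both fractions, at 677, 377 and 233 FPKM in NP and 218, 73.3 and 197 FPKM in P (log2 ratio -1.41 ± 0.72, limma adjusted p = 0.342). *Ndufs1*, the largest core subunit, had no even level, at 7.05, 6.78 and 0 FPKM in NP and 83.2, 2.39 and 2.64 FPKM in P, so its ratio of 1.35 ± 1.41 rested on P replicate 1. *Ndufa4*, which is now counted with complex IV, was likewise at 199 FPKM in P replicate 1 (45 recovered reads) but 17.8 and 22.3 in the other P libraries, against 9.85, 54.0 and 1.68 FPKM in NP (ratio 1.92 ± 1.23, adjusted p = 0.435). For both genes the fractions overlapped. At the low end, *Ndufa5* was listed at 0 in all libraries but P replicate 2, where it had 1 recovered read, while *Ndufb11* of the same complex reached 4422 FPKM in NP. *Ndufv1*, *Ndufs1* and *Ndufa5* were picked after their values had been seen.

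Complex II, succinate dehydrogenase, has no mitochondrially encoded subunit and showed 0 calls among its 4 genes, with 1 at an unadjusted p under 0.05 and a median log2 ratio of -1.74. *Sdha*, the flavoprotein that oxidises succinate, was found at 46.8, 46.6 and 26.5 FPKM in the NP libraries and at 3.14, 14.0 and 9.47 FPKM in the P libraries, and *Sdhc*, a membrane anchor, at 50.7, 49.0 and 26.2 FPKM in NP and 13.1, 18.3 and 19.3 FPKM in P. Both had all P libraries below all NP libraries, as did 23.2% of all genes tested. Their ratios were -2.20 ± 1.07 and -1.22 ± 0.99 (limma adjusted p = 0.32 and 0.512). *Sdhb*, the iron-sulphur subunit, was at 28.1, 23.8 and 5.96 FPKM in the NP replicates, compared with 5.45, 10.2 and 3.75 FPKM in P, and its fractions overlapped (ratio -1.29 ± 1.16). *Sdhd*, the other membrane anchor, was the most variable of the complex, at 152, 207 and 966 FPKM in NP and 308, 55.1 and 17.1 FPKM in P. Its ratio was -2.21 ± 0.95 (adjusted p = 0.274), and without P replicate 1 it was -3.30 and past the threshold (adjusted p = 0.0807, the lowest of 13 alternatives that ran up to 0.767). Of the pair whose promoters are printed above, *Sdhd* was the higher in every library.

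Complex III, which passes electrons to cytochrome c, had the lowest median of the 5 complexes, -2.37 over 7 tested members. It had 1 call, where 1.80% of all genes tested were called lower. *Uqcrq* (chromosome 11, 53427922 to 53430831), a small subunit of the complex, had the lowest ratio of the members tested at a pseudocount of 1, though not at 0.1 or 5, at 29.6, 115 and 211 FPKM in NP and 0, 3.35 and 2.82 FPKM in P. Its log2 ratio was -5.15 ± 1.16 (limma adjusted p = 0.0416), and even the 10.0 FPKM that 3 reads would be worth in P replicate 1 is below every NP value. *Uqcr11*, another small subunit, had the highest mean of the complex because of a single library, at 41.6, 66.2 and 1492 FPKM in NP and 19.0, 20.5 and 12.1 FPKM in P. Without NP replicate 3 its ratio moved from -3.19 to -1.59. *Uqcrfs1*, the Rieske iron-sulphur protein, showed no difference that could be read, at 56.9, 42.0 and 1.75 FPKM in NP and 17.9, 3.86 and 78.1 FPKM in P (ratio 0.03 ± 1.29), and its sign turned when NP replicate 3 or P replicate 3 was left out, to -1.36 and -0.99.

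**Figure D3:**
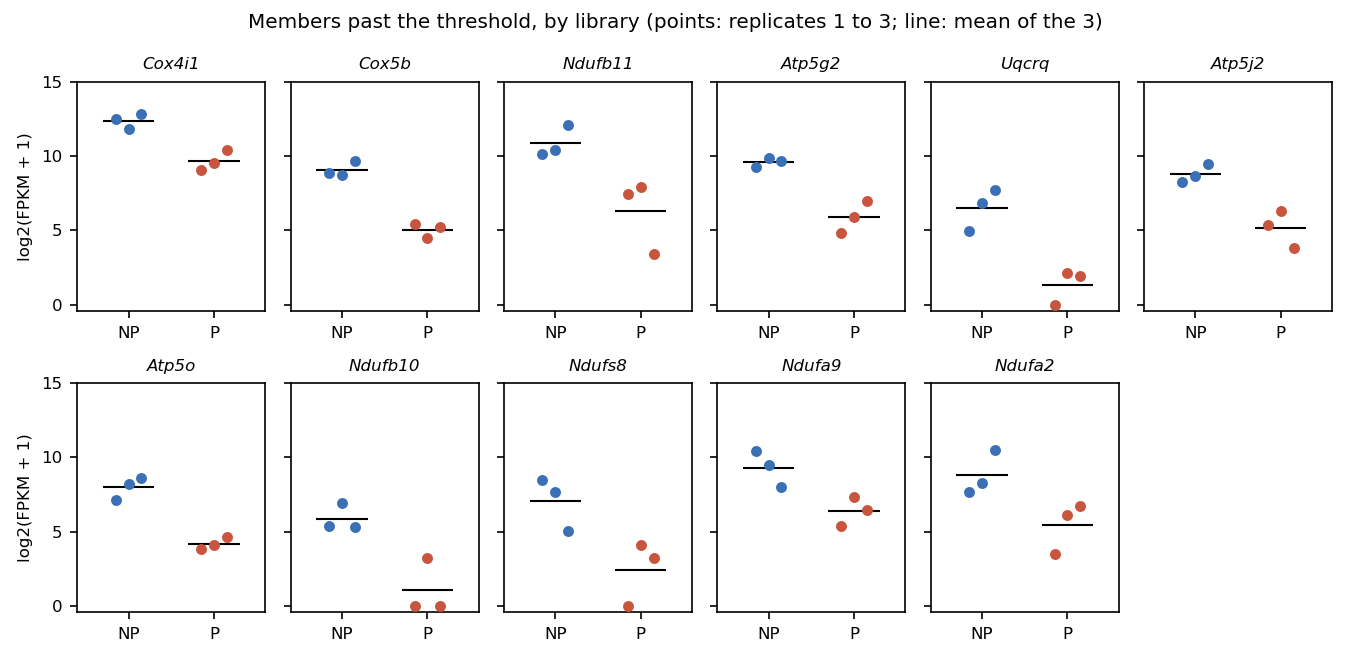
log2(FPKM + 1) (vertical axis) of 11 members past the threshold in the 3 NP and 3 P libraries, with a line at the mean of each fraction. In every panel the 3 P points lie below the 3 NP points, and *Uqcrq*, *Ndufb10* and *Ndufs8* have P libraries at 0.

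Complex IV, cytochrome c oxidase, held the most abundant member and the member with the highest ratio. *Cox4i1* (chromosome 8, 120668290 to 120674209), a subunit on which assembly of the oxidase depends, measured 5635, 3525 and 7102 FPKM in NP, and 530.4, 748 and 1333 FPKM in P. That is a mean of 5421 ± 1798 FPKM (SD, n = 3) in NP and 870.5 ± 415 in P, 6.23-fold lower in P, with a log2 ratio of -2.68 ± 0.47 (limma adjusted p = 0.0126). *Cox4i1* was still the member with the most recovered reads in P replicates 1 and 2. *Cox5b*, a matrix-side subunit, had 462, 423 and 814 FPKM in NP against 43.1, 21.7 and 36.5 FPKM in P, 16.8-fold lower in P by the means, with a ratio of -4.02 ± 0.76 (adjusted p = 0.0138). It passed under 7 of 13 alternatives and *Cox4i1* under 8. *Cox5b* shares up to 390 bases with *Gm11273* and *Cox4i1* up to 154 with *Emc8*, and the part of shared reads was not tested. *Cox5a*, the partner of *Cox5b* on the matrix side and named here after its values were seen, was found at 191, 550.4 and 1284 FPKM in the NP libraries and at 8.85, 44.4 and 1392 FPKM in the P libraries. The P libraries of *Cox5a* spanned 157-fold, the widest range among the 46 members above 0 in all 3, and its ratio of -2.59 ± 1.17 did not pass (adjusted p = 0.29).

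*Cox6c* (chromosome 15, 35925886 to 35938246), a small subunit of the membrane part, was the only member with every P library above every NP library. It was at 3.62, 0.558 and 4.51 FPKM in NP and at 46.2, 12.0 and 33.5 FPKM in P. Recovered reads numbered 16, 36 and 195 in the NP replicates against 27, 49 and 185 in the P replicates, each shallower than the NP library of the same number. The log2 ratio of 3.02 ± 1.19 did not pass the threshold (limma adjusted p = 0.228, between 0.114 and 0.567 over 13 alternatives) and stayed between 2.07 and 3.94. *Cox6c* shares 231 bases with a pair of pseudogenes, *Cox6c2* and *Gm16399*, and what part of the reads came from them was not tested.

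Several subunits of complexes IV and V exist as alternative genes that differ between tissues, and the oocyte libraries used them unequally. *Cox4i1* exceeded *Cox4i2*, the form known from lung and low oxygen, which was at 15.3 FPKM in NP replicate 2, at 23.2 FPKM (3 recovered reads) in P replicate 1 and at 0 elsewhere. *Cox6a2*, the form known from heart and skeletal muscle, was at 3.68, 83.1 and 41.5 FPKM in NP, against 4.60, 2.52 and 0.705 FPKM for the widely expressed *Cox6a1*. The muscle form was thus above the widely expressed form in 2 of 3 NP libraries, while in P both were at 0 or at a few reads. *Cox6b1* was at 22.4, 30.2 and 2.94 FPKM in NP and *Cox6b2*, known from testis, at 7.33, 1.5 and 0 FPKM. *Cox7a2* was at 80.4, 129 and 49.9 FPKM in the NP replicates, compared with 16.2, 31.4 and 41.1 FPKM in P, while its muscle form *Cox7a1* was at 0 in all libraries. *Cox7a2l* was level between fractions, at 155, 134 and 44.6 FPKM in NP and 133, 40.5 and 119.9 FPKM in P (log2 ratio -0.17 ± 0.86, and 0.82 and 0.68 under the other scalings, which raise the median of all genes as well). *Cox7b* was at 2.0, 5.87 and 3.87 FPKM in NP and *Cox7b2* at 0. *Cox8a* was at 2.96, 16.4 and 2.12 FPKM in NP and 0 in every P library, and neither *Cox8b* (0 throughout) nor *Cox8c* (1 recovered read) was present at a level that could be read. *Ndufa4l2*, the relative of *Ndufa4* known from low oxygen, was at 23.6, 0 and 0.601 FPKM in NP and 0 in P. None of these differences between fractions passed the threshold apart from that of *Cox4i1*.

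**Figure D4:**
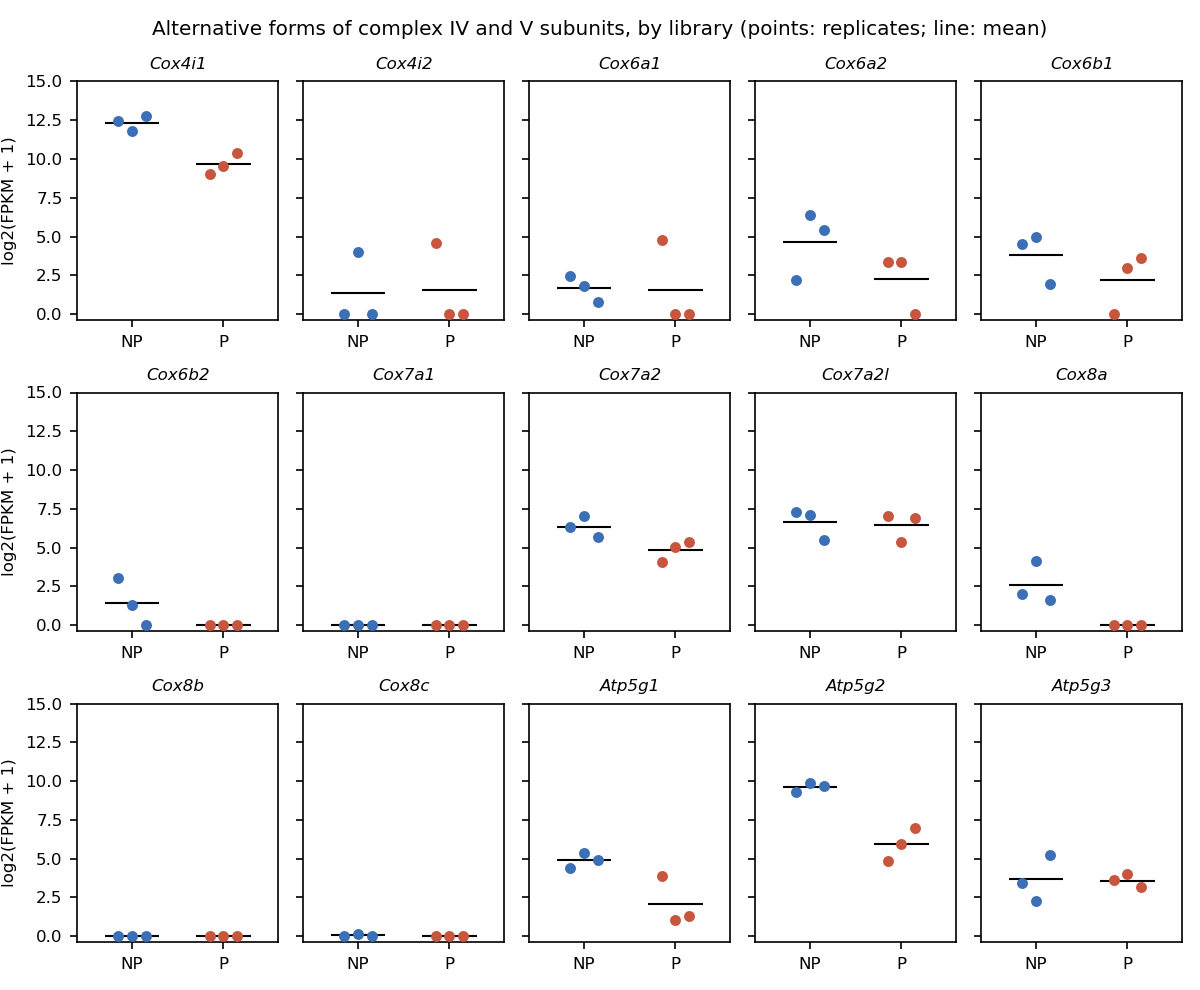
log2(FPKM + 1) (vertical axis) of alternative forms of complex IV and V subunits in the 3 NP and 3 P libraries, with a line at the mean of each fraction. *Cox4i1* and *Atp5g2* lead their sets in NP, *Cox6a2* lies above *Cox6a1* in 2 NP libraries, and *Cox7a1* and *Cox8b* are at 0 throughout.

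Complex V, the ATP synthase, had 3 calls among 15 tested members, where 1.80% of all genes tested were called lower. Its median log2 ratio was -2.07, against -1.03 for all genes. All 15 were below 0 on the deposited scale, as were 8478 of the 10578 genes, and *Atp5d* and *Atp5k* were tested through NP alone. *Atp5g2* (chromosome 15, 102663014 to 102667749) is 1 of 3 genes for the same c subunit of the rotating ring. It measured 617, 927 and 811 FPKM in NP, and 27.7, 59.6 and 127 FPKM in P, with a ratio of -3.68 ± 0.73 (limma adjusted p = 0.0216). *Atp5g1* had 20.2, 40.3 and 29.2 FPKM in NP against 13.7, 1.07 and 1.45 FPKM in P (ratio -2.83 ± 1.18, adjusted p = 0.259). *Atp5g3* was found at 10.0, 3.80 and 37.1 FPKM in the NP libraries and at 11.2, 14.9 and 7.99 FPKM in the P libraries, with a ratio of -0.07 ± 1.16, and of 0.78 and 1.35 under the other scalings, which raise the median of all genes as well. *Atp5g2* was thus the highest of the set in every library, and the 3 ratios were not tested against each other. *Atp5g2* and *Atp5g1* share up to 645 and 411 bases with other genes, pseudogenes among them.

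*Atp5j2*, a subunit of the membrane part, was at 303, 402 and 696 FPKM in the NP replicates, compared with 39.7, 79.0 and 13.1 FPKM in P (log2 ratio -3.62 ± 0.82, limma adjusted p = 0.0429). *Atp5o*, the subunit that joins the stalk to the catalytic head, measured 139.8, 301 and 388 FPKM in NP, and 13.5, 16.7 and 24.0 FPKM in P (ratio -3.78 ± 0.86, adjusted p = 0.0429). The annotated span of *Atp5o* in the table, 91684398 to 91931687 on chromosome 16, takes in other genes, and reads from them cannot be told apart without strand. *Atp5a1*, the alpha subunit, had 319, 259 and 77.3 FPKM in NP against 162, 138 and 144 FPKM in P, the tightest P values among the 46 members above 0 in all 3 (1.17-fold from lowest to highest). *Atp5b*, the beta subunit, was found at 132, 175 and 50.6 FPKM in the NP libraries and at 70.6, 52.5 and 79.5 FPKM in the P libraries. Their ratios were -0.33 ± 0.76 and -0.66 ± 0.84 (adjusted p = 0.836 and 0.678), both above the median of all genes, and in both the fractions overlapped. *Atp5a1* and *Atp5b* were picked after their values had been seen.

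Replicates of a fraction differed widely for single members. In NP the highest library exceeded the lowest by a median of 3.47-fold over the 67 members above 0 in all 3, and in P by 4.52-fold over 46 members. The order of the 86 members was similar between libraries, with Spearman's rho from 0.78 to 0.88 between NP libraries and from 0.62 to 0.75 between P libraries, as a description across genes that share libraries. The members have short merged exons, with a median exon length of 1631 bases against 4220 over the genes tested. This length joins all annotated exons of a gene and can exceed that of a single transcript. Exon length and ratio had a rho of -0.02 across the 76 members and 0.18 across the 10392 tested genes with a length. The part of length in the members' ratios was not tested. Level and ratio had a rho of -0.40 across members and -0.20 across the genes tested. Of the members, 21 share at least 100 bases at 95% identity with a pseudogene, and 3 of the 20 tested were called, with a median of -2.08. Among the 48 that share such a stretch with no gene, 6 of 41 tested were called and the median was -1.46. Over all genes tested 1.80% were called lower and the median was -1.03. What part shared reads have in the members' ratios was not tested.

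Other genes of the same organelle and of the translation machinery are given for comparison, against the same background of 1.80% called lower. All 13 mitochondrially encoded subunits were listed at 0 in every library, and since every oocyte uses these genes no level can be read from that. Of the assembly factors, 1 of 37 tested was lower in P and the median log2 ratio was -0.99. The call was *Chchd8*, now *Coa4*, a complex IV factor (62.4, 65.9 and 72.0 FPKM in NP; 0, 2.46 and 0 FPKM in P). Of 13 citrate cycle enzymes 0 were called by limma, with 2 at an unadjusted p under 0.05 and a median of -1.03, the same as all genes to 2 decimals. *Cycs*, the somatic cytochrome c, was low in both fractions, at 3.32, 0.406 and 0.387 FPKM in NP and 0, 1.54 and 4.36 FPKM in P. Mitochondrial ribosomal proteins, with 6 of 70 lower and a median of -1.87, and cytosolic ribosomal proteins, with 11 of 78 lower and a median of -2.19, had medians close to or below the -1.89 of the oxidative phosphorylation genes. None of these lists was tested against another. With the replicate block, whose background is 6.27%, the calls were 3 of 37, 1 of 13, 18 of 70 and 27 of 78 for assembly factors, citrate cycle enzymes and the mitochondrial and cytosolic ribosomal proteins.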

How the data were processed

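The deposited table of FPKM per gene was made by the authors, who trimmed reads (Trim Galore 0.4.1; quality by FastQC 0.11.5), aligned them to GRCm38 (HISAT2 2.0.5) and quantified them in Seqmonk after rRNA depletion and whole transcriptome amplification. For annotation release and strand setting, nothing is given in the sources used here. The authors' mean columns were not used. For 58 duplicated symbols the row of highest mean was kept.

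Fractions were compared in limma 3.58.1 (R 4.3.3; two-sided, trended variance) on log2(FPKM + 1), which understates changes of low genes. The 10578 genes whose mean exceeded 1 FPKM in NP or P entered, and p-values were adjusted over all of them (Benjamini-Hochberg, threshold 0.1). The code was tested on simulated data. An exact permutation test of 3 against 3 cannot go below p = 0.1. The labels do not say that replicates are separate animals, so p-values measure the spread between these libraries. Depth was recovered with GENCODE M21 exon lengths, merged per gene, which made between 58.3% and 65.4% of low values whole within 0.02 reads. Read numbers and limits are therefore approximate and cover counting error only.

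NP and P were pools of the same gradient, so libraries of the same number were taken as a pair, although no source says that the numbers match. Their deviations from the fraction means correlated at 0.0634, 0.0991 and 0.116, and those of other pairs at -0.0886 to 0.0208. The block was an alternative, beside other pseudocounts, filters and scalings and each library left out.

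Named genes were those past the threshold, the highest mean and the highest and lowest ratio of each complex, alternative forms, and complex II. A call that enters the counts is not reported by name here. Members and lists were chosen with earlier results of these data known. Shared bases were found with BLAST 2.17.0, and plots made with matplotlib 3.10.9 in Python 3.11.15.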

Additional observations from a re-analysis of the deposited data

How the results depend on the processing

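The number of members past the threshold, 12, fell to 7 with a pseudocount of 0.1 and to 0 without a filter (31 at an unadjusted p under 0.05), after median-of-ratios rescaling and after quantile normalization, and rose to 19 with the replicate block. Over all genes these fits called 0.652%, 0%, 0.0296%, 0.0378% and 6.32%. Leaving out single libraries gave 0 to 16, with 12, 12 and 16 without P replicates 1, 2 and 3, where 2.27%, 1.495% and 3.13% of all genes were called. The members' median log2 ratio, -1.89, was -2.38 and -1.14 with pseudocounts of 0.1 and 5, -1.69 without a filter, -2.12 with a mean FPKM above 5, -1.21 and -0.80 under both rescalings, and -1.89 to -1.69 with each library left out. It was below that of all genes under all of these, by 0.53 to 1.11. For 32 named genes under 13 alternatives, 305 of 412 values kept direction and side of the threshold, 82 lost and 2 gained the call, and 23 changed sign. Those were *Cox6a1* (0.31 with a pseudocount of 5, 0.34 and 0.93 under both rescalings, -1.69 to 0.69 with a library left out), *Uqcrfs1* (-0.073; -1.36 to 1.03), *Atp5g3* (0.78, 1.35; -0.77 to 0.73), *Cox7a2l* (0.82, 0.68; -0.73 to 0.37), *Cox7b* (0.41 under quantile normalization; -1.11 to 0.18) and *Cox4i2* (-1.34 to 1.53 with a library left out). Both rescalings raise the median of all genes, from -1.03 to -0.37 and 0.0027, a shift larger than the distance of these ratios from 0. The cause of the other changes was not tested. Depth limits P replicate 1 most, where 34 of 86 members were at 0 and 19 had 1 to 3 recovered reads.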
